A study of Mus musculus with 3 samples.

Results

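The regions described here are stretches of mouse chromatin that were more open in telogen skin, the resting phase of the hair cycle, than in anagen or UVB-exposed skin, among nuclei sorted for a melanocyte label. They were chosen on the counts themselves. Counts were summed over the nuclei of each condition, and an autosomal region was kept where telogen had 20 or more counts and where its counts per 1000000 of that condition (CPM) were at least 3 times those of both anagen and UVB. Of 55124 autosomal regions with 20 or more telogen counts, 3096 met the rule (5.62%), out of 315694 regions in all (308931 of them autosomal). Each region was 500 bp long. The level in telogen over that in anagen or UVB is therefore a description of how the regions were picked and carries no test. The rule did not use where the regions lie or which letters their promoters hold. Nor did it use the class of nuclei, but the sums depend on how many counts each class gave. Which nuclei carried the regions, and traits that go with a class, are therefore not independent of the rule.

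All mice carried Dct-rtTA; Tre-H2B-GFP and drank doxycycline (20 mg in 100 ml water) for 5 days. In this model the promoter of Dct, a pigment cell enzyme, drives the doxycycline-dependent label, a GFP fused to a histone, and GFP+ nuclei of the dorsal skin were sorted. They were profiled by single-nucleus ATAC-seq, which counts transposase insertions in open chromatin. The anagen nuclei came from a pool of 8 mice depilated with Nair cream to start the hair cycle, the UVB nuclei from a pool of 24 mice irradiated 3 times at 2.2 mJ/cm2, and the telogen nuclei from a pool of 12 mice with neither treatment. The mice were 7 weeks old by one label and 8 weeks old by another. Telogen and anagen shared 1 library, while the UVB pool was run as 2 technical replicates in libraries of its own, so effects of UVB and of library cannot be told apart. Each condition is 1 pooled sample, no test between conditions was possible, and every interval covers counting error only.

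After counting each barcode sequence once per condition, anagen had 3753 nuclei with 10397896 counts (median 1577 a nucleus), UVB had 6553 nuclei with 16182770 counts (median 1726) and telogen had 2042 nuclei with 5225945 counts (median 1650). Second copies left out numbered 1721 in anagen, 62 in UVB and 543 in telogen, and 506 barcode sequences were seen in more than 1 condition. The GFP gate did not hold melanocytes only. Nuclei that clustered with melanocyte markers made up 29.5% of anagen, 44.8% of UVB and 11.1% of telogen nuclei. The summed level of the 13 melanocyte markers, counted outside the chosen regions, was 3321 CPM in anagen, 2350 CPM in UVB and 896 CPM in telogen. The same sum over 10 myeloid and Langerhans markers was 148 CPM in anagen, 139 CPM in UVB and 260.1 CPM in telogen, and 9 of the 10 were highest in telogen. No marker of either list was at 0 in any condition.

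Skin holds a resident immune compartment of macrophages, dendritic and Langerhans cells and T cells, next to keratinocytes, fibroblasts, vessels, nerves and the pigment lineage. In blood-derived cells, the ETS factor PU.1 (gene Spi1) binds purine-rich sites in promoters and enhancers of genes such as those for integrins, receptors and signalling adaptors. The microRNA miR-142 is known as a marker of blood-derived cells. Open chromatin is often specific to a cell type, so a region's level in a pool depends both on how many nuclei of a type are present and on how open the region is in each.

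Sequences are shown for 6 promoters and for the miR-142a pair, because PU.1-type letters were in 22.8% of the promoters that chosen regions overlapped, and because the largest run of neighbouring regions lay over the miR-142 hairpin. The promoters are 250 bases up to the annotated gene start, written 5′ to 3′ on the gene's strand, from the RefSeq annotation of GRCm38.p6. Capitals mark the PU.1 letters GAGGAAGT or, where they lie on the opposite strand, ACTTCCTC. The 6 were picked after their values were seen, as genes with well known roles in blood cells among those whose promoter held the letters. They are Nlrp1b, an inflammasome sensor (chr11:71230734-71230983, minus strand), Samsn1, an adaptor of lymphocytes (chr16:75909267-75909516, minus strand), Inpp5d, the inositol phosphatase SHIP1 (chr1:87620062-87620311, plus strand), Vav1, a guanine nucleotide exchange factor (chr17:57278850-57279099, plus strand), Cd37, a tetraspanin (chr7:45238840-45239089, minus strand), and Pik3cg, a phosphoinositide kinase subunit (chr12:32208471-32208720, minus strand).
Nlrp1b promoter: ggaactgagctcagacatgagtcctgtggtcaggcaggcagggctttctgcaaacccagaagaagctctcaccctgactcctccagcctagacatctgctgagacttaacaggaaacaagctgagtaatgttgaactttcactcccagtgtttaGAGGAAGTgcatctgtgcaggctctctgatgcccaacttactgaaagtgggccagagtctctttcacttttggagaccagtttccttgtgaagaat
Samsn1 promoter: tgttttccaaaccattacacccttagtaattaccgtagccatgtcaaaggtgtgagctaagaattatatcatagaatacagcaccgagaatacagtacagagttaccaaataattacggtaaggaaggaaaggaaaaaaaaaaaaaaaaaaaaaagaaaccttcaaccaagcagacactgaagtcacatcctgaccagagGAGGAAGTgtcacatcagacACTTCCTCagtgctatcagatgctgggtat
Inpp5d promoter: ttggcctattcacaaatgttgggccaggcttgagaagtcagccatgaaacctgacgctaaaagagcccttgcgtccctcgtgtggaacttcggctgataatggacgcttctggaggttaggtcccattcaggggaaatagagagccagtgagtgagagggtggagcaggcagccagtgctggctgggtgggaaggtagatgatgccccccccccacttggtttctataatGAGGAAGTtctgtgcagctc
Vav1 promoter: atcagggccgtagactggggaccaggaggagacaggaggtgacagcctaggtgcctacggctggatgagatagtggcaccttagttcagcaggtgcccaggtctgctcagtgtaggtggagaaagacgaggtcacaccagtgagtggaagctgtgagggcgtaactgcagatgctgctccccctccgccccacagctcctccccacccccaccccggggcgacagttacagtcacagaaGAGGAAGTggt
Cd37 promoter: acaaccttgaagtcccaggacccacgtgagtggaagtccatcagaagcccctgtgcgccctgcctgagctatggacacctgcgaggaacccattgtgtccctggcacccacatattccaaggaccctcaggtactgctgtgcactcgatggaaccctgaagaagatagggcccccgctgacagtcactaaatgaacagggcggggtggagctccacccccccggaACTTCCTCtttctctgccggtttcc
Pik3cg promoter: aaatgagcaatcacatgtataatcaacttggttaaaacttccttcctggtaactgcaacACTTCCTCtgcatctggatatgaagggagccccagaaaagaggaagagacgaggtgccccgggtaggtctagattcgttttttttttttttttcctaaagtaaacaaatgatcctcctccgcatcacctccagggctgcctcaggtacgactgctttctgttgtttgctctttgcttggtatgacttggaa

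The mature arms of miR-142a, from RefSeq on the same build, come from the hairpin at chr11:87756864-87756927 (plus strand). Capitals mark the seed, bases 2 to 8, by which a microRNA pairs with its targets. The 5p arm spans chr11:87756867-87756887 and the 3p arm chr11:87756903-87756925, and the seeds differ.
mmu-miR-142a-5p: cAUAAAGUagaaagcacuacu
mmu-miR-142a-3p: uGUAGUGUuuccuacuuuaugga

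At the regions over the 6 printed promoters, telogen counts were between 21 and 47, and most of them lay in nuclei with myeloid markers. The Nlrp1b promoter region had 3 counts in anagen, 12 in UVB and 21 in telogen. That of Samsn1, whose promoter holds the letters on both strands, had 17 counts in anagen, 23 in UVB and 43 in telogen. That of Inpp5d had 25 counts in anagen, 22 in UVB and 44 in telogen. Telogen had the most counts in each of these regions, although it was the shallowest condition. That of Vav1 had 27 counts in anagen, 17 in UVB and 47 in telogen. That of Cd37 had 12 counts in anagen, 23 in UVB and 26 in telogen, and that of Pik3cg had 8 in anagen, 21 in UVB and 22 in telogen. The regions of Cd37 and Pik3cg had nearly equal counts in UVB and telogen, and they met the rule because CPM divides by the larger UVB total.

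Together the 3096 regions held 35825 counts in anagen (0.345% of the condition, 95% Clopper-Pearson interval 0.341 to 0.348), 64669 in UVB (0.400%, 0.397 to 0.403) and 98522 in telogen (1.89%, 1.87 to 1.90). Most counts in these matrices are whole pairs (the value 2 made up 59.1% of entries in anagen, 62.6% in UVB and 61.9% in telogen), so intervals that take each count as independent are too narrow. A single region was thinly covered, with a median of 10 counts in anagen, 18 in UVB and 28 in telogen. The median level was 0.962 CPM in anagen, 1.11 CPM in UVB and 5.36 CPM in telogen. The median ratio was 5.57 for telogen over anagen and 4.74 for telogen over UVB, against 1.30 and 1.27 over all 55124 regions tested. The ratio of telogen to the higher of the other conditions had a median of 3.98 and a highest value of 31.0. Both 95% intervals lay above 3 for only 465 of the 3096 regions. At the 3-fold line, regions near Mcf2l, Ndrg2 and Casz1 lay just inside with 33 counts in UVB and 32 in telogen each, and regions near Krt10, Tmem30b and Btg1 lay just outside with 32 counts in UVB and 31 in telogen each. The regions inside and outside the line thus differed by 1 count in UVB and 1 in telogen.

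The regions lay away from gene starts more often than all regions with 20 or more telogen counts, but not than all autosomal regions. Of 3009 with an annotated start on their chromosome, 310 were within 1 kb of one (10.3%, 95% interval 9.24 to 11.4), against 32.5% of all regions with 20 or more telogen counts. The gap was smaller at like depth: among regions with 20 to 40 telogen counts, 9.53% of the chosen regions and 19.5% of all were within 1 kb of a start. Of all autosomal regions, whatever their telogen counts, 10.6% were within 1 kb of a start. The median distance to a start was 13537 bp for the chosen regions and 7187 bp for all regions with 20 or more telogen counts. With 20 to 40 telogen counts the medians were closer, at 14281 bp for the chosen regions and 12502.5 bp for all. Inside protein-coding genes lay 57.3% of the chosen regions and 65.7% of all, and over 50 kb from any such gene lay 8.53% of the chosen regions and 9.0% of all. With 20 to 40 telogen counts, 57.4% of the chosen regions and 59.7% of all lay inside such genes. Over 50 kb away lay 8.69% and 11.5%. The share of tested regions that were chosen ran between 4.18% on chromosome 3 and 6.50% on chromosome 19.

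Nuclei with myeloid markers held most of the signal. Nuclei were clustered without the chosen regions and named from marker lists. In the myeloid-like cluster, 9 of 10 myeloid markers were at least 2-fold above other nuclei when counted outside the chosen regions, among them Ptprc, the leukocyte phosphatase CD45 (128 CPM, against 8.63 CPM in other nuclei), Cd74, the invariant chain of antigen presentation (246 against 12.4 CPM), and Tyrobp, the adaptor DAP12 (50.8 against 0.96 CPM). T cell markers were higher too, 6 of 8 at 2-fold or more, with Cd3d at 56.2 CPM against 1.96 CPM. Cd207, the Langerhans cell lectin, had only 4 counts in the cluster. The melanocyte genes Dct (61.5 against 478 CPM) and Mlana (5.32 against 73.7 CPM) were lower than in other nuclei. The cluster is thus a mixed immune one, and its myeloid-like name rests on the leading list. Clustered with another seed, 112 of the 371 telogen nuclei of this cluster stayed in a myeloid-like one (30.2% of the telogen counts in the chosen regions). The other 259 fell in a cluster of 282 telogen nuclei named from T cell markers (22.7%).

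Myeloid-like nuclei numbered 157 in anagen (4.18%), 340 in UVB (5.19%) and 371 in telogen (18.2%), and they gave 2.59% of the counts in anagen, 3.26% in UVB and 21.1% in telogen. They held 21.0% of the counts in the chosen regions in anagen, 22.9% in UVB and 52.7% in telogen. Within this class the regions took 28016 CPM in anagen, 28069 CPM in UVB and 47032 CPM in telogen, a ratio of 1.68 for telogen over anagen (95% interval 1.64 to 1.72) and 1.68 for telogen over UVB (1.65 to 1.71). The ratio within the class was thus well below the ratios of 5.47 and 4.72 over all nuclei. At like depth the gap was smaller in nuclei under 5000 counts, and in 1 bin it was absent against UVB. Myeloid-like nuclei of 1000 to 2000 counts had 29054 CPM in anagen (46 nuclei), 32033 CPM in UVB (96) and 30322 CPM in telogen (128), so that UVB was above telogen. Those under 1000 counts had 19045 CPM in anagen, 19586 CPM in UVB and 25735 CPM in telogen, and those of 2000 to 5000 counts had 28223 CPM in anagen, 30133 CPM in UVB and 38452 CPM in telogen. The gap was wider at 5000 to 10000 counts, with 32467 CPM in anagen (12 nuclei), 25195 CPM in UVB (7) and 59515 CPM in telogen (25). Above 10000 counts there were 0 myeloid-like nuclei in anagen, 2 in UVB and 20 in telogen, the last at 60296 CPM. Keratinocyte-like nuclei had 5987 CPM in anagen, 6767 CPM in UVB and 15944 CPM in telogen, with ratios of 2.66 for telogen over anagen and 2.36 for telogen over UVB. Endothelial-like nuclei had 7826 CPM in anagen, 8492 CPM in UVB and 14847 CPM in telogen, with ratios of 1.90 over anagen and 1.75 over UVB. With all depths summed, the telogen level was the highest of the 3 conditions in every class. The regions were chosen for a high telogen sum, so this is a description.

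Melanocyte-like nuclei, the target of the sort, held few of these counts. They gave 46.0% of all counts in anagen, 40.1% in UVB and 6.67% in telogen, but 22.9% of the counts in the chosen regions in anagen, 15.5% in UVB and 1.0% in telogen. Their level there was 1716 CPM in anagen, 1543 CPM in UVB and 2828 CPM in telogen. Fibroblast-like nuclei were about as low, at 2035 CPM in anagen, 1914 CPM in UVB and 3175 CPM in telogen, and Schwann-like nuclei were at 1975 CPM in anagen, 2228 CPM in UVB and 6766 CPM in telogen. Of 856 tested regions with most of their telogen counts in melanocyte-like nuclei, 0 were chosen. With so small a share of the telogen counts in these nuclei, such a region could hardly meet the rule on summed counts. The 0 thus does not show how open such regions were within melanocyte-like nuclei.

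**Figure D1:**
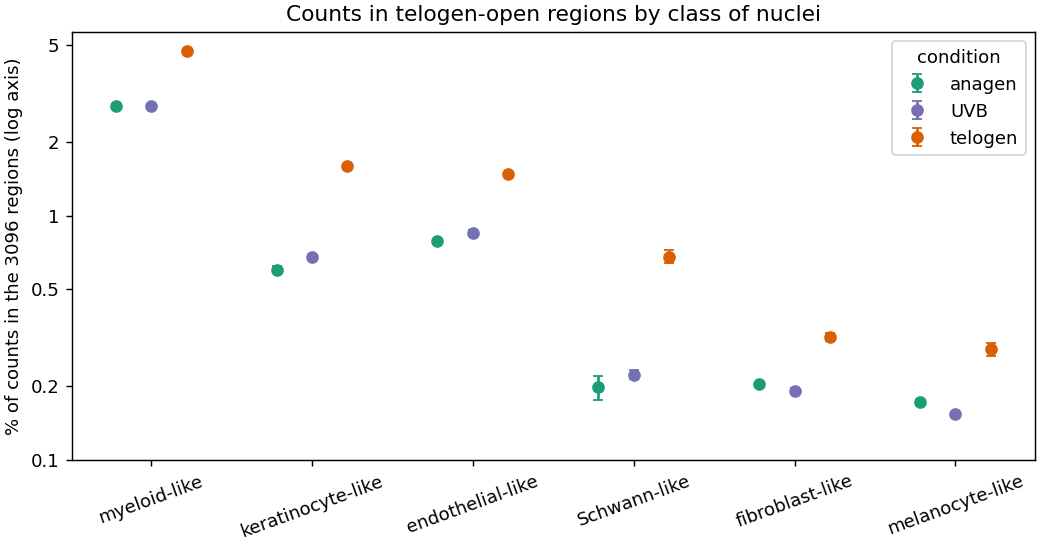
Percent of the counts of each class of nuclei that lay in the 3096 regions (log axis), for anagen, UVB and telogen; each point is 1 class of 1 pooled sample, and bars are 95% Clopper-Pearson intervals. Myeloid-like nuclei are highest in each condition, at 2.80% in anagen, 2.81% in UVB and 4.70% in telogen, and melanocyte-like nuclei lowest, at 0.172% in anagen, 0.154% in UVB and 0.283% in telogen.

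When regions were assigned to the class that held over 50% of their telogen counts, 1851 (59.8%) fell to myeloid-like, 708 (22.9%) to keratinocyte-like, 343 (11.1%) to endothelial-like and 4 to fibroblast-like nuclei, and 190 had no such class. Among all regions tested, 8.68% were mostly myeloid-like, 23.1% keratinocyte-like and 8.91% endothelial-like. Of the 4784 tested regions that were mostly myeloid-like, 38.7% were chosen, against 5.56% of the 12725 mostly keratinocyte-like and 6.98% of the 4913 mostly endothelial-like ones. Myeloid-like nuclei gave 21.1% of the counts in telogen, against 2.59% in anagen and 3.26% in UVB. A mostly myeloid-like region could thus meet the rule on summed counts more readily, and nothing is read from these shares. The keratinocyte-like regions kept the highest ratio within their own class. Their summed level in keratinocyte-like nuclei was 3143 CPM in anagen, 4051 CPM in UVB and 12351 CPM in telogen, which is 3.93 times anagen (3.74 to 4.13) and 3.05 times UVB (2.98 to 3.12). The myeloid-like regions had ratios of 1.69 over both conditions in myeloid-like nuclei, and the endothelial-like regions 2.25 over anagen and 2.20 over UVB in endothelial-like nuclei. Counted within 1 class, where a region needed 20 or more telogen counts in that class, 164 of 1376 myeloid-like regions met the rule in myeloid-like nuclei (11.9%), against 3.06% of all regions tested there. In keratinocyte-like nuclei 197 of 558 did (35.3%), against 1.77%, and in endothelial-like nuclei 25 of 236 (10.6%), against 0.722%. The regions were chosen on the same counts, so nothing is read from these gaps. The keratinocyte-like class holds 2 clusters of unequal shares between conditions (75 and 250 nuclei in anagen, 908 and 565 in UVB, 287 and 151 in telogen). Within the first the ratios were 2.73 over anagen and 2.90 over UVB, and within the second 2.93 over anagen and 2.70 over UVB.

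Giving anagen and UVB the class shares of telogen, by the counts of each class, lowered the ratio over all chosen regions to 1.90 for telogen over anagen and 1.83 for telogen over UVB. At these matched shares, 380 of the 3096 regions (12.3%) stayed at least 3 times above both conditions, against 0.905% of all tested regions, and 536 were below 1. The median ratio to the higher condition was 1.66 over all chosen regions, 1.33 for the myeloid-like ones, 2.44 for the keratinocyte-like ones and 1.84 for the endothelial-like ones. Among keratinocyte-like regions, 181 of 708 (25.6%) stayed at 3 times or more, against 145 of 1851 myeloid-like regions (7.83%). These remaining ratios use the counts that chose the regions and so are descriptions.

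**Figure D2:**
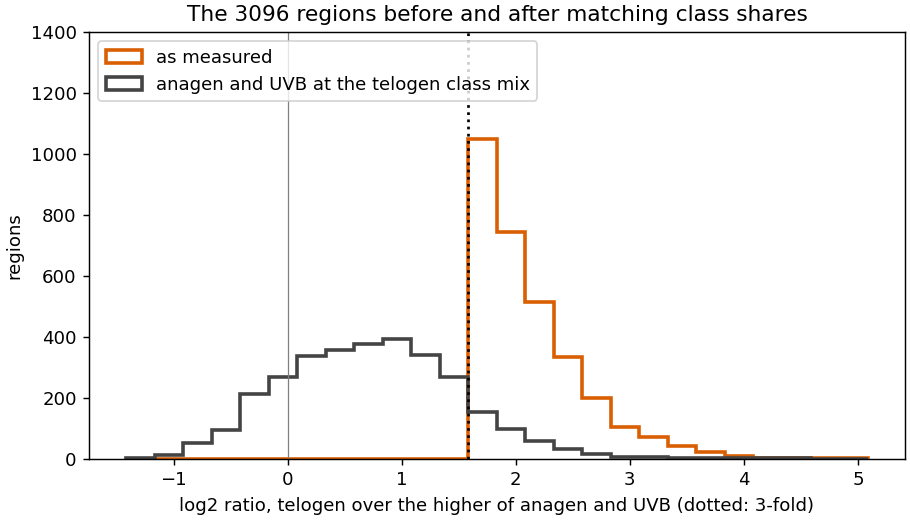
Number of the 3096 regions by their log2 ratio of telogen to the higher of anagen and UVB, as measured and after anagen and UVB were given the class shares of telogen. As measured all lie at or above 3-fold (dotted line) with a median of 3.98; at matched shares the median is 1.66 and 380 lie at or above 3-fold.

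The signal was carried by few, deep nuclei. The barcode names split telogen nuclei by tag numbers 1 to 10, which the labels do not explain. Tag number 1 had 50 nuclei with a median of 15216 counts, and 3.54% of its counts lay in the chosen regions. Tag number 10 had 375 nuclei with a median of 1650 counts and 0.786%. The level was thus 4.51 times as high in tag number 1, at 35429 CPM, as in tag number 10, at 7862 CPM. Myeloid-like nuclei gave 46.4% of the counts of tag number 1 and 26.7% of those of tag number 10, where their level in the regions was only 10733 CPM. Tag numbers with at least 50 nuclei ran between 2300 and 6489 CPM in anagen and between 2082 and 7360 CPM in UVB, below every telogen one. Outside myeloid-like nuclei these tag numbers had 2012 to 4553 CPM in anagen and 1930 to 6150 CPM in UVB. The telogen ones had 6816 to 14524 CPM there. Smaller UVB tag numbers 2, 5 and 6 (1, 10 and 5 nuclei) were at 10610, 8265 and 16863 CPM, above telogen tag number 10. The regions were chosen for a high telogen sum, so nothing is read from these gaps.

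Without tag number 1, only 1567 regions met the rule, 26.0% of the counts in them lay in myeloid-like nuclei, and the ratio of the highest to the lowest tag number was 2.57. Without tag number 10 that ratio was 2.61. Within the 3096 regions, 407 had at least 50% of their telogen counts in tag number 1, and 1991 had more counts there than in any other tag number. A region was open in 8 to 81 telogen nuclei, with a median of 15, spread over a median of 7 tag numbers. Some 1970 of the 2042 telogen nuclei (96.5%) had at least 1 count in a chosen region, but 10 nuclei held 14.2% of the counts there and 100 nuclei held 49.5%, while the same 100 held 20.8% of all telogen counts. All of the first 10 were myeloid-like and from tag number 1, and 70 of the 100 were myeloid-like. Without the deepest nuclei (over 3 times the median of the condition), 508 regions met the rule, with 18.1% of their telogen counts in myeloid-like nuclei. With every nucleus thinned to 1000 counts, 154 did, with 9.97%. The minimum of 20 telogen counts was kept in these settings while telogen counts were left out, as it was without tag number 1. Fewer regions could thus reach it, and the number tested in each was not counted. The most chosen regions open in 1 nucleus were 243 in anagen, 243 in UVB and 730 in telogen.

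**Figure D3:**
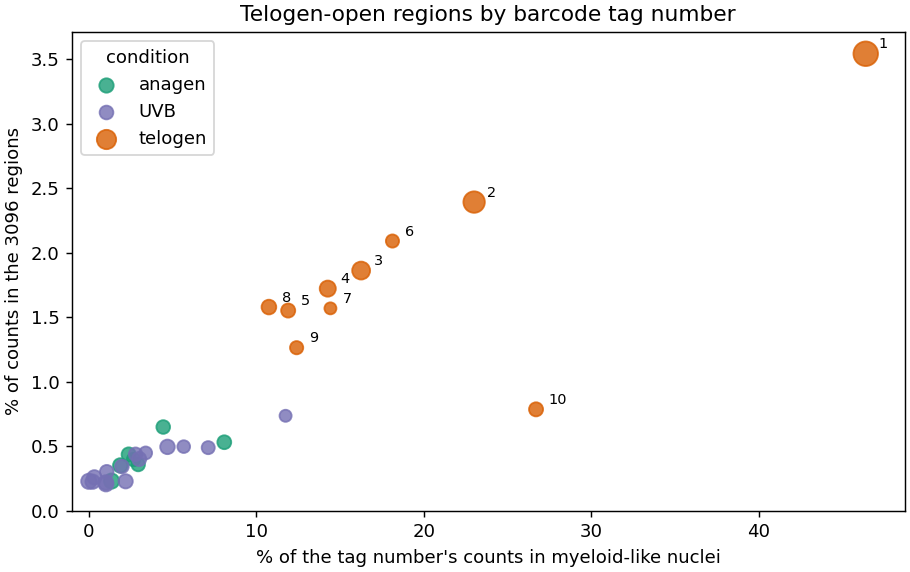
Percent of the counts of each tag number that lay in the 3096 regions, against the percent of its counts in myeloid-like nuclei, for tag numbers with at least 50 nuclei; numbers name the telogen ones, and larger points have a higher median count. Telogen tag numbers lie between 0.786% and 3.54%, above the highest of anagen (0.649%) and UVB (0.736%), and tag number 10 is low for its myeloid-like share.

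Outside myeloid-like nuclei, telogen was higher than both other conditions in each depth bin. Within them this held in each bin with nuclei of all conditions but that of 1000 to 2000 counts, where UVB was above telogen. The regions were chosen for a high telogen sum, so nothing is read from these gaps. In bins of nuclei by their own total, the other nuclei had 1889 to 5036 CPM in anagen, 3047 to 4433 CPM in UVB and 9604 to 14439 CPM in telogen. In telogen the level was highest in nuclei over 10000 counts and in anagen lowest there. When myeloid-like nuclei were left out of all conditions, 1971 regions met the same rule (4.39% of 44900 tested). Of these, 1014 were also among the chosen regions, which is 51.4% of the new set and 32.8% of the chosen one.

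The regions with the most telogen counts were led by endothelial-like or keratinocyte-like nuclei (6 of 12 each), and at matched class shares all 12 had ratios between 1.17 and 2.23. The most counted lay in Cd24a, a membrane glycoprotein of epithelial and immune cells (chr10:43578787-43579287), with 90 counts in anagen, 143 in UVB and 150 in telogen. Its telogen counts were spread over 81 nuclei, 34.7% of them in endothelial-like ones. The region nearest Ier5, an immediate early gene 36468 bp away, had 91 counts in anagen, 109 in UVB and 147 in telogen. A region 3870 bp from Ppp2ca, the catalytic subunit of a protein phosphatase, had 82 counts in anagen, 37 in UVB and 124 in telogen, with 93.5% of the telogen counts in endothelial-like nuclei. This region was high in anagen too, at a ratio of 3.01 for telogen over anagen against 10.4 for telogen over UVB.

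Several keratinocyte-led regions among the 12 were low in anagen. A region in Myo15b, an unconventional myosin (chr11:115869349-115869849), had 4 counts in anagen, 95 in UVB and 99 in telogen, and 93.9% of the telogen counts lay in keratinocyte-like nuclei. One 6483 bp from Axin2, a scaffold of the beta-catenin destruction complex and a Wnt target, had 9 counts in anagen, 91 in UVB and 96 in telogen, at 68.8% in keratinocyte-like nuclei. Both were far lower in anagen than in UVB and telogen, whose counts were nearly equal. When barcodes sharing over 30% of their open features were counted once, the ratio to the higher condition was 0.609 at Myo15b and 0.763 at Axin2. In such a pair were 794 of 2042 telogen, 237 of 3753 anagen and 2 of 6553 UVB nuclei, so the setting acted mostly on telogen. Regions in Il6ra, the interleukin-6 receptor (43 counts in anagen, 115 in UVB and 112 in telogen), and Btg2, an antiproliferative gene (48 in anagen, 107 in UVB and 110 in telogen), were lowest in anagen too. Others among the 12 had Nudt4, Disc1, Ston2 or Plekhg2 as the nearest protein-coding gene.

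The regions with the highest ratios were low in counts. Of the 12, 11 were led by myeloid-like nuclei. In Ptprc (chr1:138158890-138159390) a region had 2 counts in anagen, 4 in UVB and 37 in telogen, ratios of 36.8 over anagen (95% interval 9.50 to 315) and 28.6 over UVB (10.3 to 111). In Cacna1d, a calcium channel subunit, 1 count was seen in anagen, 2 in UVB and 20 in telogen, all 20 in myeloid-like nuclei. In Cd276, the checkpoint ligand B7-H3, the counts were 2 in anagen, 4 in UVB and 34 in telogen, and in Pilra, an inhibitory immune receptor, 1 in anagen, 4 in UVB and 28 in telogen. In Ctla4, the T cell checkpoint receptor, they were 2 in anagen, 3 in UVB and 22 in telogen. With 1 to 5 counts in the other conditions, these ratios carry wide intervals. Nlrp1b, Rfc1, Tmem184b, Slc35a5, Ccl6 and Aqp9 made up the other myeloid-led ones. The 1 exception lay in Ebf1, a transcription factor gene known from B cells, with 1 count in anagen, 5 in UVB and 28 in telogen, 85.7% of them in endothelial-like nuclei. At matched class shares, 10 of the 12 stayed at 3 times or more, with a range of 2.56 to 20.6. The top values, 20.6 at Slc35a5 and 18.6 at Ebf1, were set by the floor of 3 counts and are not measured ratios.

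By gene, 1489 of 13627 protein-coding genes with a tested region in or within 2 kb had at least 1 chosen region (10.9%), and 127 had 3 or more. Several of the genes with the most are known from immune cells. Entpd1, the ectonucleotidase CD39, had 10 of its 19 tested regions chosen, with 98 counts in anagen, 158 in UVB and 319 in telogen over the 10. In Itgb2, the beta-2 integrin of leukocytes, 6 of 7 regions were chosen, with 72 counts in anagen, 107 in UVB and 249 in telogen, with 93.6% of the telogen counts in myeloid-like nuclei. Laptm5, a lysosomal protein of blood cells, had all 6 of its tested regions chosen, with 95 counts in anagen, 88 in UVB and 208 in telogen. Syk, a kinase of immune receptors, had 6 of 7, with 65 counts in anagen, 112 in UVB and 221 in telogen, and Pik3ap1, an adaptor of B cells and macrophages, 6 of 8, with 34 in anagen, 83 in UVB and 175 in telogen. All of these genes had over 80% of their telogen counts in myeloid-like nuclei. Tiam1, Etv6 and Foxp1 are long genes with 31, 22 and 34 tested regions, of which 8, 7 and 7 were chosen. In Foxp1, a forkhead factor gene, 40.0% of the telogen counts lay in myeloid-like and 36.2% in keratinocyte-like nuclei.

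Among gene lists, read against the 10.9% of all genes, myeloid and Langerhans markers stood at 7 of 8 genes with a tested region (14 chosen regions). The 10.9% does not allow for how many tested regions a gene has. In Ptprc all 4 tested regions were chosen, with 27 counts in anagen, 41 in UVB and 132 in telogen over the 4. In Spi1, which encodes PU.1 itself, 3 of 7 were chosen, with 41 counts in anagen, 54 in UVB and 101 in telogen. In Tyrobp, 2 of 3 were chosen, with 22 counts in anagen, 42 in UVB and 78 in telogen. The other genes were Cd74, Mrc1, Fcer1g and Cx3cr1. At matched class shares most of these ratios were near 1: the Fcer1g region was at 1.09, those of Spi1 between 1.13 and 1.34 and those of Cd74 at 0.790 and 1.05, while Ptprc ran between 0.889 and 7.36. Without myeloid-like nuclei 1 Spi1 region was at 0.819, and with thinned nuclei 1 Cd74 region was at 0.821. No T cell marker had a chosen region, of 5 tested.

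Keratinocyte markers stood at 4 of 13. At Krt14, a keratin of the basal layer, 1 of 7 tested regions was chosen, with 5 counts in anagen, 15 in UVB and 26 in telogen. At Krt1, a keratin of differentiating layers, both tested regions were chosen, with 3 counts in anagen, 43 in UVB and 52 in telogen over the pair, and at Trp63, the regulator of epidermal cells, 1 of 6 was chosen, with 5 in anagen, 19 in UVB and 32 in telogen. At Krt15, which marks the follicle bulge, 1 of 2 was chosen, with 7 counts in anagen, 57 in UVB and 57 in telogen, and its ratio was 0.812 when barcodes sharing over 30% of their open features were counted once. Each of these had over 90% of its telogen counts in keratinocyte-like nuclei. Endothelial markers stood at 2 of 9 (Pecam1 with 1 of 13 tested regions and Tek with 1 of 3). In the Pecam1 region 54.2% of the telogen counts lay in myeloid-like and 41.7% in endothelial-like nuclei. Adipocyte markers stood at 1 of 3 (Pparg, with 1 of 3 tested regions), with 88.5% of the telogen counts in myeloid-like nuclei. Schwann markers stood at 1 of 8 (Mbp, with 3 of 24 tested regions). Fibroblast markers (9 genes), pericyte markers (5) and skeletal muscle markers (2) stood at 0. In Mbp, the myelin gene, 82.2% of the telogen counts of the 3 regions lay in myeloid-like nuclei.

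Genes linked to resting hair follicles were read from a pair of lists. Of 15 follicle stem cell and quiescence genes, 3 had a chosen region (20.0%), and of 15 BMP and TGF-beta genes, 2 (13.3%), against 10.9% of all genes. Nfatc1, which holds follicle stem cells in quiescence, had 5 of 29 tested regions chosen, with 66 counts in anagen, 78 in UVB and 155 in telogen, but 50.3% of the telogen counts lay in myeloid-like and 36.8% in endothelial-like nuclei. Foxc1, another quiescence factor, had 1 of 5 chosen, with 11 counts in anagen, 14 in UVB and 28 in telogen, 75% of them in endothelial-like nuclei. Smad1, which carries BMP signals, had 3 of 14 chosen, with 30 counts in anagen, 67 in UVB and 91 in telogen, 65.9% of them in endothelial-like and 34.1% in keratinocyte-like nuclei. Hedgehog and Wnt genes had 0 of 14 on the fixed list, which did not hold Axin2 within the 2 kb window. Of 18 AP-1 and immediate early genes, 4 had a chosen region: Atf3, Klf2, Nr4a1 and Btg2. Of their tested regions, 1 of 22, 2 of 6, 3 of 20 and 2 of 11 were chosen, against 5.62% of all tested regions. Atf3, a stress response factor, had 27 counts in anagen, 77 in UVB and 75 in telogen, a ratio of 3.02 over UVB that was 0.752 with such barcodes counted once. A Klf2 region was at 0.702 without myeloid-like nuclei.

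Of 16 melanocyte lineage genes, Trpm1, a channel gene of pigment cells, was the only 1 with a chosen region. That region, 1 of 5 tested there, had 28 counts in anagen, 42 in UVB and 43 in telogen. Of the telogen counts, 88.4% lay in keratinocyte-like nuclei. The region passed narrowly, at ratios of 3.06 (95% interval 1.86 to 5.11) over anagen and 3.17 (2.02 to 4.97) over UVB. It stood at 0.894 with barcodes sharing over 30% of their open features counted once.

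Some chosen regions lay close to each other, but most stood alone. How often all tested regions lie as close was not counted, so nothing is read from the number of runs. Joined where less than 10 kb apart, 2234 stood alone, 259 formed pairs, and the largest run held 9. The 9 lay between Supt4a and Tspoap1 over the miR-142 hairpin (chr11:87744980-87759963), out of 11 tested regions in that span. Together they had 120 counts in anagen, 286 in UVB and 391 in telogen, or 11.5 CPM in anagen, 17.7 CPM in UVB and 74.8 CPM in telogen, and 85.9% of the telogen counts lay in myeloid-like nuclei. The region over the hairpin itself, from which the arms printed above derive, had 8 counts in anagen, 40 in UVB and 74 in telogen. It was the most counted of the run in telogen. The 6 runs of 6 lay at Itgb2, Laptm5, Tm6sf1, Entpd1, Eya3 to Ptafr and Cd300a to Gprc5c, with 83.2% to 93.6% of the telogen counts in myeloid-like nuclei. Of 230 hairpins with a tested region within 2 kb, 8 had a chosen one (3.48%), 2 of them the overlapping Mir142 and Mir142b.

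**Figure D4:**
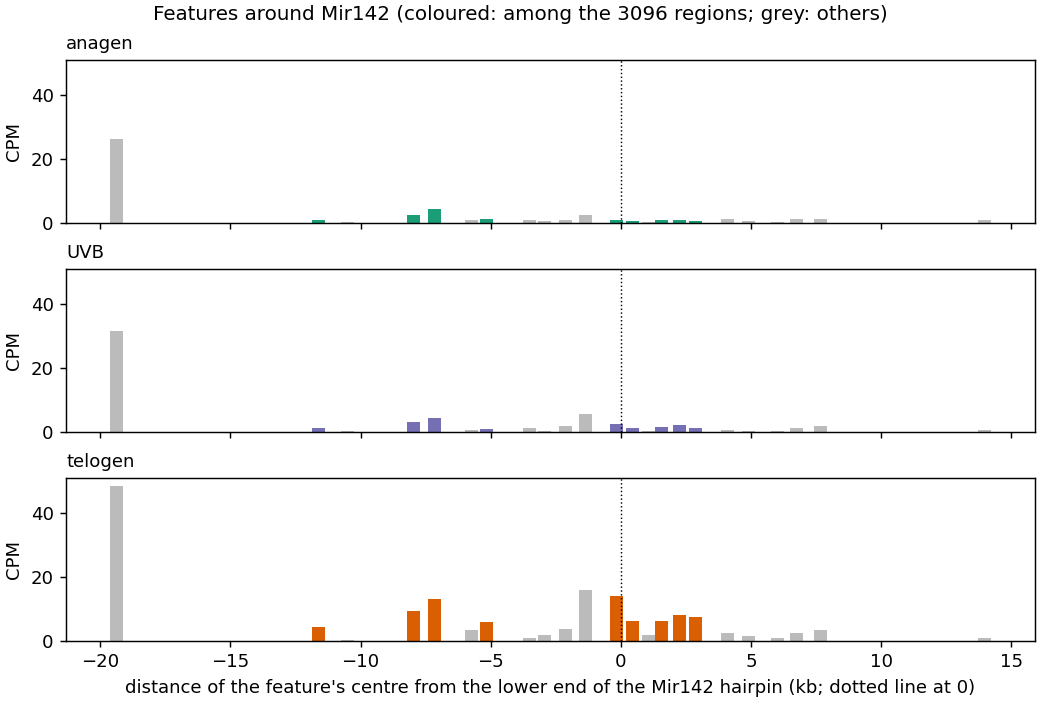
Level (CPM) of the regions within 20 kb of the Mir142 hairpin by distance from it, in anagen, UVB and telogen, with chosen regions coloured and 14 others grey. The region over the hairpin had 0.769 CPM in anagen, 2.47 CPM in UVB and 14.2 CPM in telogen, and the chosen regions lie on both sides of it.

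The promoters differed in letters from other open promoters. Chosen regions overlapped 167 promoters, taken as 250 bases before to 50 after each RefSeq start, of 156 genes, and 38 of these (22.8%, 95% interval 16.6 to 29.9) held the PU.1 letters GAGGAAGT on either strand. Among promoters that any region with 20 or more telogen counts overlapped, the share was 3.07% of 12559, and it was 3.25% of all 31396 autosomal promoters. Promoters overlapped by myeloid-like chosen regions had 34 of 120 (28.3%), and those overlapped by other, unchosen regions mostly in myeloid-like nuclei had 18 of 236 (7.63%). The share at the chosen regions was thus above that at other regions of the same class, a difference that was not tested. The share was 15.2% among the regions chosen without tag number 1, 9.52% without nuclei above 3 times the median count, 1.35% without myeloid-like nuclei and 0% with thinned nuclei. These sets were smaller, with 508 regions without the deepest nuclei and 154 with thinned ones, so few promoters lie behind their shares. No interval was computed for them, and the 0% is not read as a loss of the letters. Several promoters are alternative or opposed starts at 1 region and are not independent. Of 26 motifs searched, the PU.1 letters were singled out after their shares had been seen.

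The RUNX letters TGTGGTT were in 8.98% of the promoters of chosen regions against 3.39% of those of all tested regions, and the AP-1 letters TGANTCA in 12.0% against 5.30%. The gaps were smaller against the promoters of unchosen myeloid-like regions, of which 6.78% held the RUNX and 11% the AP-1 letters, and against all autosomal promoters, at 5.32% and 7.84%. The KLF/SP letters GGGCGGG ran the other way, in 14.4% against 49.5%, as did the ETS letters CCGGAAG, in 5.99% against 18%. Of the promoters of unchosen myeloid-like regions, 25.4% held the KLF/SP and 8.90% the ETS letters, and of all autosomal promoters 25.8% and 9.0%. These promoters were also poorer in G and C, with a median of 52.3% against 62.0%, and in CpG, with a median of 5 against 22 in 300 bases. Over all autosomal promoters the medians were 53% and 7. The base composition thus differed along with the motif shares, and its part in them was not tested.

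**Figure D5:**
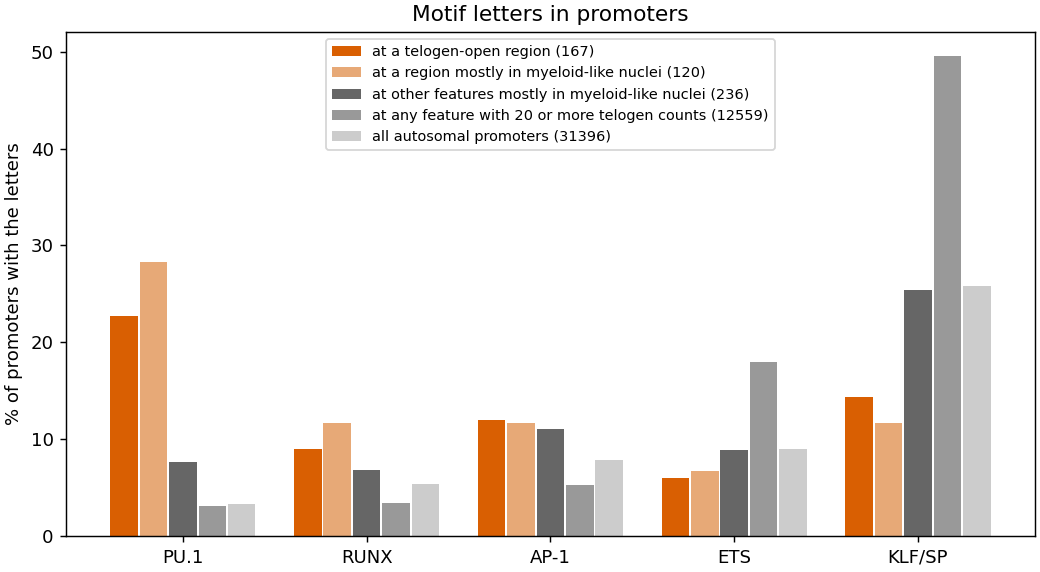
Percent of promoters that hold the letters of 5 motifs, for promoters of chosen regions and the sets they are compared with. The PU.1 letters are in 22.8% of the 167 promoters of chosen regions and 3.07% of the 12559 promoters of all tested regions, and the KLF/SP letters in 14.4% and 49.5%.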

How the data were processed

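Single-nucleus ATAC-seq matrices of telogen, anagen and UVB nuclei were used as deposited: whole-number counts per region and nucleus that the authors made, 1 matrix a condition, without normalization. Per the submitters' processing notes, the tools were MACS2, Bowtie2 and SAMtools and the build was mm10 (GRCm38), all without version. Cut-site shifts, filters on nuclei and doublet removal were not given in the sources used here, and no doublet caller was run. No map of UVB nuclei to its 2 technical replicates was used, so UVB is 1 sample.

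Barcodes with the same sequence in a condition were counted once, the deeper copy kept. CPM are per 1000000 counts in regions of that condition, class or tag number. Marker CPM are instead per 1000000 counts summed over protein-coding genes with 2 kb at both ends, without the chosen regions. A region near several genes counts once for each there, so marker and region CPM are on different scales. A condition at 0 was set to 3 counts in a ratio. For single regions at matched class shares, any level below that of 3 counts was set to it. Intervals (95%) are exact conditional binomial for ratios and Clopper-Pearson for shares, and cover counting error only. The members, gene lists, markers and motifs were chosen with earlier results of these data known. Regions named are the 12 with most telogen counts, the 12 with the highest ratio, the 3 nearest each side of the 3-fold line, the 8 genes with most members, members within 2 kb of listed genes and the 5 largest runs.

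For clustering, 160717 regions open in at least 20 nuclei, without the members and the top 1%, were weighted by TF-IDF and reduced to 30 components (1 that followed depth left out), and a graph of 15 neighbours was clustered by Leiden at resolution 0.6. Clusters were named by the list, of 10, with the highest median fold and 3 or more markers at 2-fold. Gene, promoter and microRNA positions and sequences are from RefSeq GRCm38.p6. Promoter starts of chromosome 18 were not used here, so shares at gene starts leave it out. No genome was used, so motifs were searched in promoters only. The work used leidenalg 0.10.2 with igraph 0.11.9 for clustering, scikit-learn 1.9.0 for components, scipy 1.17.1 for intervals, pandas 2.3.3 and numpy 2.4.6 for tables and matplotlib 3.10.9 for plots, in Python 3.11.15. The code was tested on simulated data. Other settings tried are in the closing section.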

Additional observations from a re-analysis of the deposited data

How the results depend on the processing

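The count of 3096 regions depends on depth, copies and the deepest nuclei. Unless another minimum is named, 20 telogen counts were needed in every setting. Where counts were left out, fewer regions could thus reach it. The PU.1 share of a small set of regions rests on few promoters. The values compared are the number of regions, their share of telogen counts (1.89%), the ratio of the highest to the lowest telogen tag number (4.51), the share of their telogen counts in myeloid-like nuclei (52.7%), the share at gene starts (10.3%), the share of promoters with the PU.1 letters (22.8%), and the ratios at matched class shares (1.90 over anagen, 1.83 over UVB). Counting all deposited copies gave 1.63% of telogen counts, a tag ratio of 3.56, 56.1% myeloid-like, 1.85 over anagen and 1.76 over UVB. Joining barcodes that share over 30% of the open features of the smaller gave 595 regions, 0.591% of telogen counts, a tag ratio of 3.10, 20.2% myeloid-like, 11.6% at starts, 2.01 over anagen and 1.97 over UVB. A 2-fold line gave 7837 regions, 5.43% of telogen counts, a tag ratio of 2.94, 31.9% myeloid-like, 12.2% at starts, 10.5% PU.1, 1.73 over anagen and 1.62 over UVB. A 5-fold line gave 812 regions, 0.463% of telogen counts, a tag ratio of 6.96, 75.1% myeloid-like, 2.40 over anagen and 2.30 over UVB. A minimum of 40 telogen counts gave 574 regions, 0.583% of telogen counts, a tag ratio of 4.04, 45.8% myeloid-like, 13.8% at starts, 31.2% PU.1, 1.81 over anagen and 1.69 over UVB. Counting open nuclei gave 606 regions, 0.537% of telogen counts, a tag ratio of 3.54, 43.9% myeloid-like, 12.9% at starts, 1.81 over anagen and 1.68 over UVB. Scaling to housekeeping gene starts gave 1.42% of telogen counts, a tag ratio of 5.09, 58.2% myeloid-like, 2.05 over anagen and 1.88 over UVB. Without nuclei over 3 times the median count the values were 508 regions, 0.419% of telogen counts, a tag ratio of 2.11, 18.1% myeloid-like, 11.8% at starts, 9.52% PU.1, 2.98 over anagen and 2.34 over UVB. Thinning to 1000 counts left out nuclei with fewer (440 in telogen, 1014 in anagen and 1291 in UVB). It gave 154 regions, 0.251% of telogen counts, a tag ratio of 2.45, 9.97% myeloid-like, 12.1% at starts and 0.0% PU.1. At matched shares the ratios were 2.52 over anagen and 2.16 over UVB. Without barcodes in more than 1 condition they were 1.94% of telogen counts, a tag ratio of 4.73, 54.5% myeloid-like and 1.79 over UVB. Clustering with seed 3 gave 30.2% myeloid-like, 1.97 over anagen and 2.0 over UVB. Resolution 1.0 gave 30.1% myeloid-like, 1.84 over anagen and 1.97 over UVB. Gene starts taken at 500 bp gave 7.41% at starts. Gene starts taken at 2 kb gave 16.1% at starts. Without myeloid-like nuclei the values were 1971 regions, 1.66% of telogen counts, a tag ratio of 2.64, 8.64% at starts, 1.35% PU.1, 2.48 over anagen and 2.22 over UVB. Leaving out each telogen tag number in turn gave 1567 to 3460 regions, 1.10% to 2.39% of telogen counts, tag ratios of 2.57 to 4.84, 26.0% to 56.2% myeloid-like, 10.1% to 10.8% at starts, 15.2% to 23.2% PU.1, 1.88 to 2.08 over anagen and 1.82 to 1.99 over UVB.

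Single regions reversed in 3 settings. With barcodes joined at 30%, the ratios were 0.609 for Myo15b, 0.763 for Axin2, 0.752 for Atf3, 0.812 for Krt15 and 0.894 for Trpm1. At 30% of the smaller nucleus, 794 of 2042 telogen nuclei were in such a pair, against 237 of 3753 in anagen and 2 of 6553 in UVB. The highest share of a union in a telogen pair was 0.181. Thinned, Cd74 was 0.821 and Tek 0.95. Without myeloid-like nuclei, Klf2 was 0.702 and Spi1 0.819. Under the 19 settings that can change the ratio of a single region, 1226 values were had for 66 named regions: 136 differed from the value reported by more than 1.5 times, 9 were below 1 and 210 were below the 3-fold line. Leaving out pairs that share over 20% of their union removed 27 anagen nuclei and moved none of the values above. At seed 3 the immune nuclei lay in clusters with myeloid-like and T cell names (112 and 282 telogen nuclei). The settings without myeloid-like nuclei and with the union were chosen after seeing the data, as were the PU.1 and matched-share values. No paired analysis was possible because each condition is 1 pooled sample with no replicate numbers. Thin coverage limits single regions, with a median of 28 telogen counts.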

Other observations

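Within the myeloid-like cluster, 3 sub-clusters differed in the level of the chosen regions. The second, with 48 anagen, 110 UVB and 90 telogen nuclei, had 41610 CPM in anagen, 35633 CPM in UVB and 59905 CPM in telogen. The first, with 77 anagen, 211 UVB and 266 telogen nuclei, had 24199 CPM in anagen, 20696 CPM in UVB and 34635 CPM in telogen, and 176 of its telogen nuclei carried tag numbers 9 and 10. A small one with T cell markers (32 anagen, 19 UVB and 15 telogen nuclei) had 17457 CPM in anagen, 20561 CPM in UVB and 31278 CPM in telogen. Telogen was highest in each, a description of regions that were chosen for a high telogen sum.

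Of the other microRNA hairpins near a chosen region, Mir6367 near Ifnar1, the type I interferon receptor gene, overlapped a region with 7 counts in anagen, 4 in UVB and 22 in telogen, all 22 in myeloid-like nuclei. Mir6943 near Grk6 lay 884 bp from a region with 26 counts in anagen, 45 in UVB and 46 in telogen, 76.1% of them in keratinocyte-like nuclei.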
